A study of Drosophila melanogaster with 3 samples.

Results

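ChIP-seq, the sequencing of DNA recovered with a protein by chromatin immunoprecipitation, was used to map where the protein CG10209 sits on the Drosophila melanogaster genome, and the results here concern the strongest regions that the authors' final peak list leaves out. The single group consisted of 3 biological replicates of whole embryos of both sexes aged 0 to 24 h. They came from a transgenic line, CG10209-GFP, in which CG10209 carries green fluorescent protein at its C-terminus, and an antibody against the tag was used for the precipitation. Chromatin was sonicated to 200 to 800 bp. There was no second condition, and whole embryos of pooled stages mix all their cell types, so a region cannot be assigned to a tissue. The regions described were chosen by a fixed rule from the list called on the pooled replicates, which holds 30000 regions, background included: all regions that overlap a peak of the authors' list by at least 1 bp were set aside, the remaining 22351 were sorted by the authors' signal value, and the first 1500 were kept. They are called the 1500 strongest unlisted regions.

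The authors' list had been made with the irreproducible discovery rate (IDR), a procedure that compares how regions rank in different replicates. A region left out by such a list can still lie at a site a protein occupies, because the list ends at a threshold and occupancy varies over a continuous range. In flies, proteins that bind near transcription starts are often found beside short core-promoter sequences. Among these are the DNA replication-related element (DRE), which the factor DREF binds, and motif 1, which the factor M1BP binds. Regions far from starts often lie in introns and between genes, where enhancers of developmental genes are found.

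The unlisted regions began exactly where the list ended. The strongest unlisted region had a signal value of 194.667, against 194.682 for the weakest IDR peak, and the 6307 IDR peaks were the 6307 regions of highest pooled signal. Rank by pooled signal alone thus separated the listed peaks from all other regions. The 1500 strongest unlisted regions took pooled ranks 6308 to 7992. Another 185 regions in that span overlapped an IDR peak and were set aside. Their signal values ran down to 158.84 with a median of 174.883, a 1.23-fold range, and the next unlisted region had 158.832. These are the authors' values, with no error given, and they are what chose the regions. The deposited −log10 q was 2 or more, a q of at most 0.01, in 1443 of the 1500 regions (96.2%), against 26.4% of all pooled regions, and in 0 of the other 20851 unlisted regions. Within the 1500, q did not follow signal evenly: −log10 q was 2.87044 at a signal of 194.667 and 2.88818 at 188.446. Among unlisted regions, it reached 2 only in those of highest signal, which the rule chose, so nothing is read from this. The median IDR peak, by comparison, had a signal of 340.932. Of the 1500 regions, 1495 had the same width, 444 bp, and 26 overlapped another of the 1500, so that they covered 1487 separate stretches. In the authors' dm3 lists, made from the same replicates on the older genome build, the first unlisted region had a signal of 201.894 and the last IDR peak 201.975, and the IDR list was shorter by 443 peaks.

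**Figure D1:**
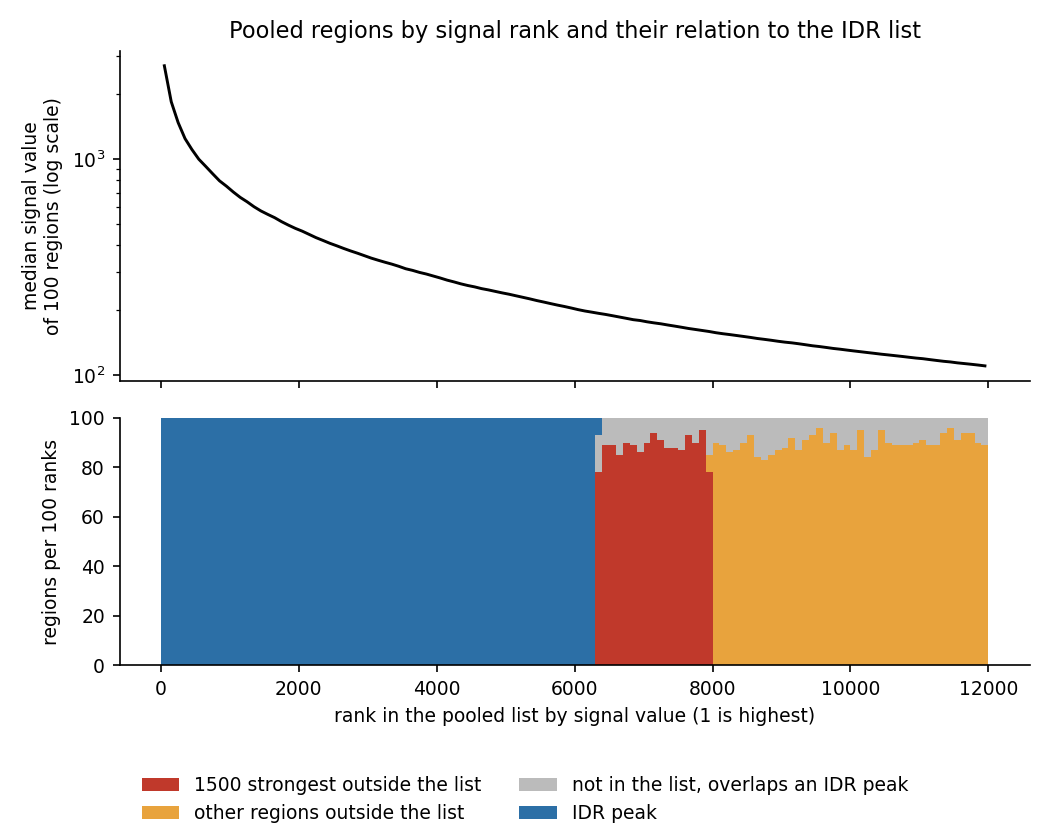
Upper panel, median authors' signal value (log axis) of each 100 consecutive regions of the pooled list, ordered by rank; lower panel, how many of each 100 are in the 1500 strongest unlisted regions, are other unlisted regions, overlap an IDR peak without being one, or are IDR peaks. The signal falls smoothly through rank 6307, where the IDR peaks end, and the 1500 regions fill ranks 6308 to 7992.

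To show what these regions look like in DNA, stretches around 6 summits are printed, all in dm6 coordinates and on the plus strand, from the RefSeq Release 6 genome. They are the named regions of highest signal that hold one of 10 motifs or words searched within 100 bp of the summit and outside annotated exons, and the bases of the match are in capitals. The first is the region at chr3R:7591277-7591477, in an intron of Nlg3, a neuroligin gene of synapses, and 35913 bp from the nearest start, that of lncRNA:CR44332. In it the words TACACTGA and CACTGAGA overlap, read on the minus strand. The second, chr3R:21025727-21025927, lies in an intron of Dhc93AB, an axonemal dynein gene, 1664 bp upstream of peg, whose product binds the Wingless signal, and holds the word CACTGTGC. The other stretches lie upstream of starts. That of chr3R:18274447-18274629 is at Vps39, a gene of vacuolar protein sorting, with a start of eIF1A also within 500 bp, and holds a DRE. The stretch chrX:581956-582120 is at vnd, a homeobox gene that specifies the ventral neuroectoderm, and chr2L:5981594-5981763 is at eIF4A, the RNA helicase of translation initiation, each with a DRE. The stretch chr3R:21856492-21856692, upstream of glec, a gene for a carbohydrate-binding protein, holds motif 7.
Nlg3 intron: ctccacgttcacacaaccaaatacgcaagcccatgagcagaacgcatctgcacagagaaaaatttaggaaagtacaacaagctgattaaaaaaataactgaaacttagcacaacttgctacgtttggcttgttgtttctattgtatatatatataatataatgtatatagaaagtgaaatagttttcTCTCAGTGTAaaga
Dhc93AB intron: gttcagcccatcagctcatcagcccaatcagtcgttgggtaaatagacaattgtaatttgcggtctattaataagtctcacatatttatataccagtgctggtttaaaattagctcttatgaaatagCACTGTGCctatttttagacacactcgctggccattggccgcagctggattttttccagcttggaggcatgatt
Vps39 upstream: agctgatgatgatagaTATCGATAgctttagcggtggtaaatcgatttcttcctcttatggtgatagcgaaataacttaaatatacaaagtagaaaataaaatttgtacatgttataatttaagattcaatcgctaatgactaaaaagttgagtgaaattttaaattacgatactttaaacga
vnd upstream: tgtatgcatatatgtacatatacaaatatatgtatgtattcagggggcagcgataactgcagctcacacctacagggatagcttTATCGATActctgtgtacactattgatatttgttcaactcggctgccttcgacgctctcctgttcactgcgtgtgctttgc
eIF4A upstream: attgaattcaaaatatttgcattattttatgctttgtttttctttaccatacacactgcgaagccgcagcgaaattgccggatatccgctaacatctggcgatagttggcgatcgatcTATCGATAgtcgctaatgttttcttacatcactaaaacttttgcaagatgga
glec upstream: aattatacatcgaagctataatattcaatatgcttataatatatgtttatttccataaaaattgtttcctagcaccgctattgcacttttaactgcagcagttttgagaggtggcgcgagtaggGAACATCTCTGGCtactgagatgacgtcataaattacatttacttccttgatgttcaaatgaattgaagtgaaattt

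The 1500 regions were at promoters somewhat less often than the weakest listed peaks and more often than the bottom of the list. A summit no more than 500 bp from an annotated start was counted as a promoter summit, and such summits were found in 461 of 1500 regions (30.7%, exact binomial 95% interval 28.4 to 33.1), against 26.6% of all pooled regions. The 1500 IDR peaks of lowest signal, which stand just above them in rank, had 536 promoter summits (35.7%). The difference was −5.0 percentage points, with a 95% interval by Newcombe's method of −8.36 to −1.63. Against the next 1500 unlisted regions, of which 441 (29.4%) were at promoters, the difference was 1.33 points, with an interval of −1.95 to 4.61. The 1500 unlisted regions of lowest signal, at the far end of the list, were at promoters in 14.3%. All these intervals cover counting error only and take regions of 1 pooled list as independent. Comparisons with the IDR peaks, here and below, carry a further limit. The rule set aside unlisted regions that overlap an IDR peak, a filter that the IDR peaks did not undergo. With only regions whose summit lay inside an IDR interval set aside, the promoter share was 31.6%. The part of the rule in the differences was not tested.

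Away from promoters, 689 regions had their summit in an intron (45.9%) and 296 between genes (19.7%), near the shares of all pooled regions (44.5% and 21.9%). In the 1500 weakest unlisted regions 46.0% of summits were in an intron. Untranslated exon sequence held 34 of the 1500 (2.27%), against 2.51% of all pooled regions. Protein-coding exon sequence held 5 (0.333%), against 4.68% of the other unlisted regions, a difference of −4.35 points (95% interval −4.70 to −3.82). Much of that contrast lay at the low end of the list, where 7.93% of the 1500 weakest unlisted regions were in coding sequence. The next 1500 unlisted regions had 0.6%, a difference of −0.267 points with an interval of −0.836 to 0.261, and the weakest IDR peaks had 0.667%. Summits more than 1000 bp from a start made up 59.3%, against 52.5% of the weakest IDR peaks (difference 6.87 points, 95% interval 3.31 to 10.4), 59.1% of the next 1500 and 75.5% of the 1500 weakest unlisted regions.

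**Figure D2:**
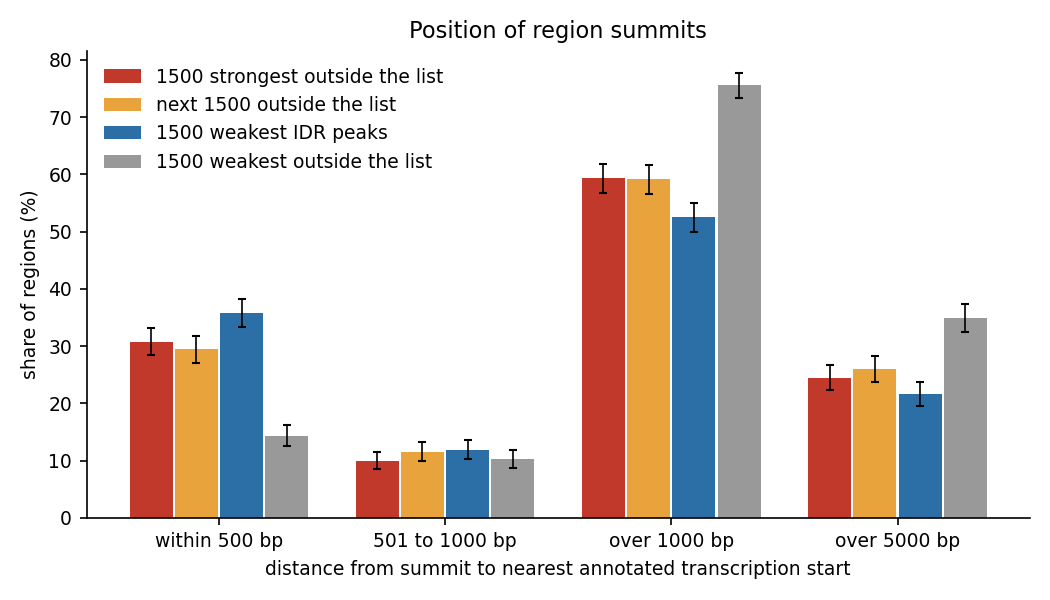
Share of regions (%) by distance from the summit to the nearest annotated transcription start, for 4 sets of 1500 regions each, with exact binomial 95% intervals; regions over 5000 bp are also counted among those over 1000 bp. The 1500 strongest unlisted regions stand at 30.7% within 500 bp, between the weakest IDR peaks at 35.7% and the weakest unlisted regions at 14.3%.

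At promoters the summits stood mostly on the upstream side. Of 461 promoter summits, 319 (69.2%) were upstream of the nearest start, and the median offset was −66 bp. Among all pooled regions 64.5% of promoter summits were upstream, and the median offset was also −66 bp. In the weakest IDR peaks 75.4% were upstream, a difference of −6.18 points (95% interval −11.7 to −0.615), with a median offset of −78.5 bp. In the next 1500 unlisted regions 62.8% were upstream, a difference of 6.39 points (0.205 to 12.5), with a median of −46 bp. The 1500 weakest unlisted regions showed no such side, with 48.1% upstream and a median offset of 14.5 bp. The 100 bp just upstream of a start held 129 of the 1500 summits (8.6%) and the 100 bp from the start onward 77 (5.13%).

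**Figure D3:**
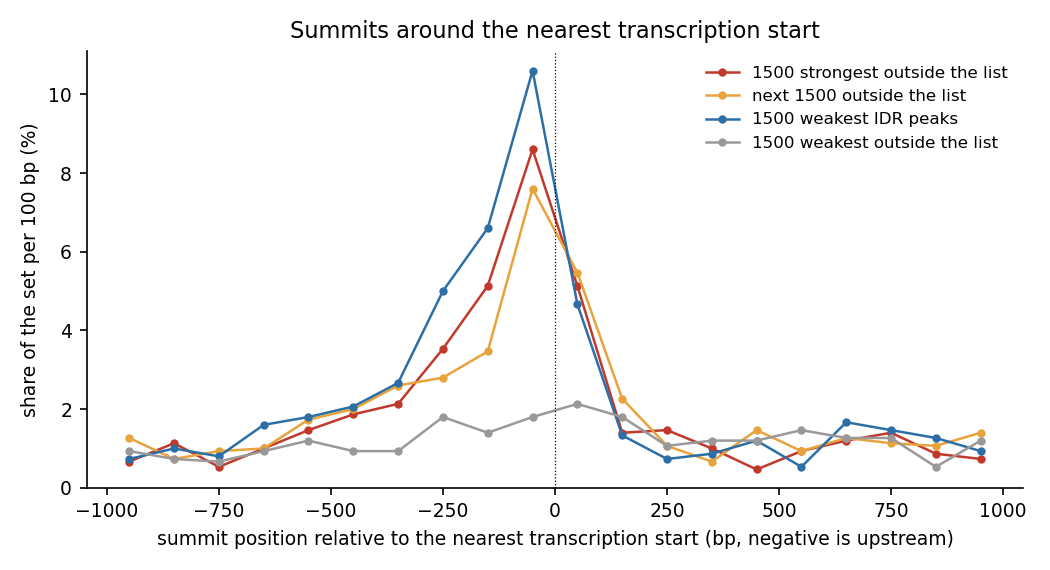
Summit position relative to the nearest transcription start in bins of 100 bp (negative is upstream), as a share of each set of 1500 regions (%). In the 1500 strongest unlisted regions the bin just upstream holds 8.6% and the bin just downstream 5.13%, against 1.8% and 2.13% for the weakest unlisted regions.

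The regions were spread over the chromosome arms. They numbered 366 on 3R, 327 on 3L, 284 on X, 262 on 2R, 254 on 2L and 7 on chromosome 4, and 0 of 1500 on Y, as was the case for all 30000 pooled regions. X held 18.9% of them, 17.3% of all pooled regions and 17.1% of the sequence. Chromosome 4 held 0.467% of them, 0.29% of all pooled regions and 0.971% of the sequence. A summit inside an annotated transposable element was found in 8 regions (0.533%), against 0.377% of all pooled regions and 0.533% of the weakest IDR peaks. Most of the regions stood apart from listed peaks: the nearest IDR peak summit was a median of 4330.5 bp away, within 1000 bp for 171 regions (11.4%) and over 10000 bp for 419 (27.9%). In the next 1500 unlisted regions these shares were 10.9% and 28.2%. Nearness to a peak is affected by the rule, which sets overlapping regions aside, and is given as a description.

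The 3 replicates differed over these regions, which is again a description, since the replicates went into the pooled list and into IDR. A region of a replicate's own list was called top-ranked if it was among its 7807 of highest signal, which is the number of IDR peaks plus 1500. Top-ranked regions of all 3 replicates met at 65 of the 1500 (4.33%), against 19.5% of all pooled regions. Of the weakest IDR peaks, 625 (41.7%) had all 3, and of the next 1500 unlisted regions 16 (1.07%). Top-ranked regions came from 2 replicates at 685 of the 1500, from 1 at 678 and from none at 72. The commonest pair was replicates 1 and 3 (314 regions), followed by replicates 2 and 3 (223) and replicates 1 and 2 (148). With any region of a replicate's 30000 counted, 1156 of the 1500 (77.1%) were met in all 3 replicates and 6 in 1. Counted in this way, the share met in all 3 was 81.4% for the weakest IDR peaks, 70.1% for the next 1500 unlisted regions and 44.9% for all pooled regions. No replicate had 1 of the 1500 among its own first 1000 regions: the best ranks were 2429 in replicate 1, 1722 in replicate 2 and 3714 in replicate 3.

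Replicate 1 was the replicate in which unlisted promoter regions were most often missing. Of the 461 promoter regions, any region of replicate 1 overlapped 294 (63.8%), while replicate 2 overlapped 446 (96.7%) and replicate 3 overlapped 456 (98.9%). Of the 890 regions more than 1000 bp from a start, replicate 1 overlapped 828 (93.0%), replicate 2 overlapped 836 (93.9%) and replicate 3 overlapped 887 (99.7%). In total 263 of the 1500 had no region in replicate 1, and 167 of these (63.5%) were at promoters. Among the 78 without a region in replicate 2, 15 (19.2%) were at promoters. With top-ranked regions alone counted, replicate 1 met 37.5% of promoter regions and 61.3% of those more than 1000 bp from a start. Replicate 2 leaned the other way, with 54.2% and 35.1%, and replicate 3 met 51.4% and 55.7%. The gap in replicate 1 was also seen on each side of the 1500 in rank. It overlapped 67.2% of promoter summits and 93.8% of distant ones among the weakest IDR peaks, and 56.5% and 89.7% among the next 1500 unlisted regions. Fewer regions reached a −log10 q of 2 in replicate 1 (4296) than in replicate 2 (9183) or replicate 3 (9015). Read depth is unknown, and its part in the gap was not tested.

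**Figure D4:**
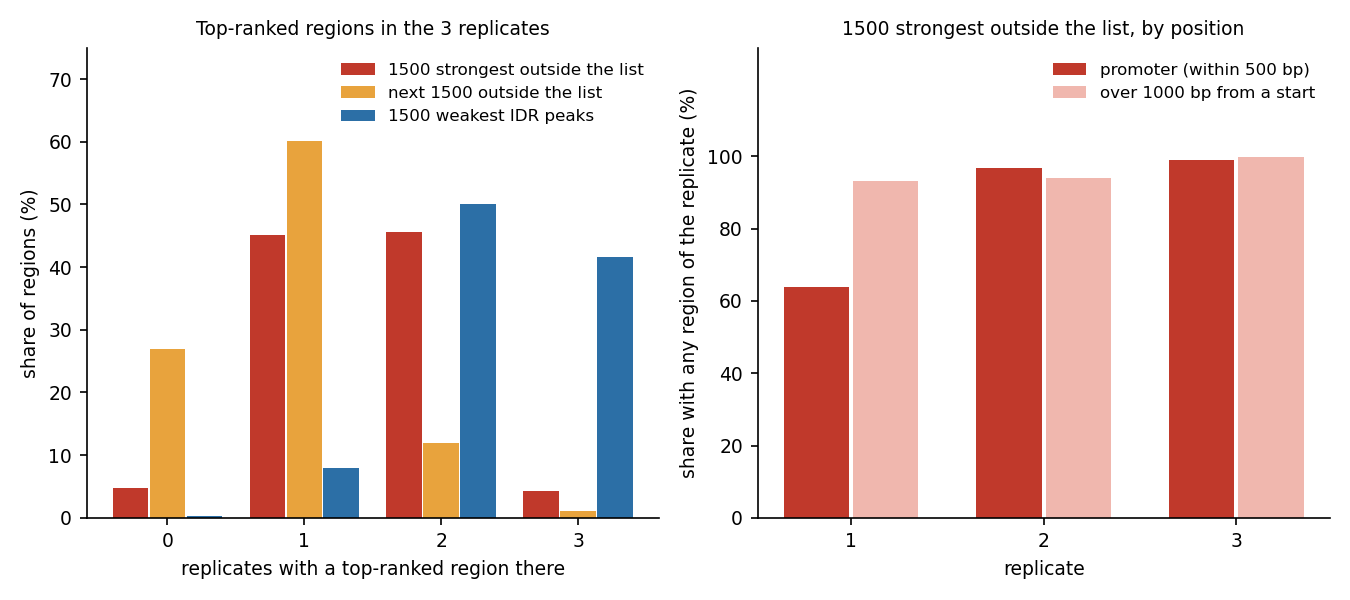
Left, share of regions (%) by how many of the 3 replicates have a top-ranked region there, for 3 sets of 1500 regions; right, share of the 1500 strongest unlisted regions (%) overlapped by any region of each replicate, promoter regions beside those more than 1000 bp from a start. All 3 replicates meet at 4.33% of the strongest unlisted regions, and in replicate 1 the promoter bar stands at 63.8% beside 93.0% for distant regions.

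Among the single regions of highest signal, some had this pattern and others had not. The strongest unlisted region lay in an intron of Desat1, a fatty acid desaturase gene, 631 bp downstream of a start, at chr3R:12442510-12442953. It ranked 6939 in replicate 2 and 7482 in replicate 3, and replicate 1 had no region there. The region 145 bp upstream of grn, a GATA-factor gene, ranked 6983, 5039 and 7466 in replicates 1, 2 and 3. The region 236 bp upstream of Agxt, an aminotransferase gene, had ranks of 4578 in replicate 2 and 5005 in replicate 3 and was missing from replicate 1. At Synd, which encodes syndapin, a membrane-bending protein, the region ranked 4775 and 6492 in replicates 2 and 3 and 22440 in replicate 1. The promoter regions of Agxt and Synd thus ranked high in 2 replicates and low or nowhere in replicate 1.

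A pair of intronic regions was missing from replicate 2 instead. The Nlg3 intron region ranked 4878 in replicate 1 and 5907 in replicate 3 and was missing from replicate 2, and the Dhc93AB intron region ranked 4886 and 6257 in the same replicates and was also missing from replicate 2. The others of the first 10 by signal had no common order of replicates. The region 6396 bp upstream of zfh1, a zinc-finger homeobox gene of mesoderm and nervous system, ranked 6231, 7805 and 6430. A region in an intron of CG18265 ranked 4623, 10865 and 6583, and one in an intron of fred, a cell adhesion gene, ranked 8621, 6585 and 6502. The remaining region of the first 10 by signal lay in a transposable element on chromosome 4, 7180 bp from lncRNA:CR44024, with ranks of 11465 and 7186 in replicates 2 and 3 and none in replicate 1.

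A second set of regions was named for the best rank in their worst replicate. A pair of overlapping regions at glec, with summits 326 bp upstream and 26 bp downstream of the start and signal values of 189.755 and 176.627, met the same region of each replicate, at ranks 5244, 5321 and 5344. The others of the first 10 by this measure had signals of 177.251 to 192.344. They lay in introns of Tet, Magi, NK7.1, simj, red and rols, in untranslated exon sequence near Myd88, which encodes the adaptor of Toll signalling, and 115 bp upstream of CG13893. The region in Tet, the gene of a nucleic-acid demethylating enzyme, ranked 3120, 4215 and 5693. The one in rols, a gene of myoblast fusion, ranked 4947, 6732 and 6906. In every replicate these regions ranked below the median IDR peak, whose ranks were 2987, 3076 and 2988 in replicates 1, 2 and 3.

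At the boundaries of the set the values change little. The 3 strongest of the 1500 had signals of 194.667, 194.631 and 194.582, against 194.721, 194.689 and 194.682 for the 3 weakest IDR peaks, the last of them 3734 bp upstream of brk, a gene for a repressor of Dpp targets. The 3 weakest of the 1500 had 158.927, 158.853 and 158.84, the first in an intron of shn, a gene of Dpp signalling. The first 3 below them, at promoters of Grasp65, Uba4 and SKIP, had 158.832, 158.767 and 158.675, and replicate 1 had no region at any of these 3.

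The summits were richer in some promoter motifs and in short words than flanking sequence of the same regions. The window of 100 bp either side of the summit was set against a window of the same size centred 1000 bp to its right, in both strands, with an exact two-sided McNemar test and Benjamini-Hochberg adjustment over 10 motifs and words. Of these, 7 passed at 0.05, all more frequent at the summit. The DRE, spelled TATCGATA, was in 39 summit windows (2.6%) and 7 flanks (0.467%), with an adjusted p of 9.16e-06 by the exact test. Motif 7, another core-promoter motif, was in 54 summit windows and 19 flanks (adjusted exact p = 0.000118), and motif 6 in 11 and 1 (adjusted exact p = 0.00907). In the first 750 regions neither passed, with adjusted exact p-values of 0.0641 for motif 7 and 0.469 for motif 6. The 4 words came from the listed peaks of these same data. CACTGAGA was in 52 summit windows (3.47%) and 11 flanks (0.733%), with an adjusted exact p of 9.62e-07. TACACTGA was in 45 and 14 (adjusted exact p = 0.000118), CACTGTGC in 41 and 14 (adjusted exact p = 0.000592) and TTTAAAAA in 133 and 76 (adjusted exact p = 0.000118). Among the regions that top-ranked regions of 2 given replicates both overlapped, which number 213 to 379, 1 to 3 of the 10 passed. The p-values measure differences between windows of 1 pooled list, not between embryo collections. In the sets on each side in rank too, matches of the DRE and TTTAAAAA were more frequent around the summits than 360 to 400 bp to the right. In the 40 bp right of the summit, DRE matches numbered 10 in the 1500, 7 in the weakest IDR peaks and 8 in the next 1500. At 360 to 400 bp they numbered 1, 2 and 2. For TTTAAAAA these counts were 39, 31 and 25, against 10, 13 and 12. Its rise was broad, and the highest bins of the neighbouring sets lay off the summit. They held 41 at 80 to 120 bp right in the weakest IDR peaks and 32 at 120 to 160 bp left in the next 1500. Shares of motifs 7, 6 and 1 in those sets are not given here.

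The other 3 did not pass. Motif 1 was in 10 summit windows and 3 flanks (adjusted exact p = 0.115), but passed by the same exact test with 200 bp either side (adjusted p = 0.0013), in the first 3000 unlisted regions (adjusted p = 0.000464) and against the left flank (adjusted p = 0.0482). GAGAGAGA, a run that the GAGA factor binds, was in 30 and 31, and CAGGTAG, the site of the early embryonic activator Zelda, in 14 and 15, with an adjusted exact p of 1 for both. The words TACACTGA and CACTGAGA share letters, and the single run in which one passes into the other, as in the Nlg3 intron, was in 15 summit windows and 2 flanks. At least 1 of CACTGAGA, TACACTGA and CACTGTGC was in 121 summit windows (8.07%), against 8.73% in the weakest IDR peaks, 7.4% in the next 1500 unlisted regions and 3.07% in the 1500 weakest unlisted regions. A and T made up 62.3% ± 7.79 of bases (SD over 1500 windows) at the summit and 58.4% ± 8.99 in the flank. They made up 63.1% at the summits of the weakest IDR peaks and 57.0% at those of the weakest unlisted regions. Base composition thus moved with the motif shares, and its part in them was not tested.

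Promoter regions and distant regions held different motifs. The DRE was in 30 of 461 promoter windows (6.51%) and 9 of 890 windows more than 1000 bp from a start (1.01%), a difference of 5.50 points (95% interval 3.38 to 8.17). Motif 7 was in 39 (8.46%) and 13 (1.46%), a difference of 7.0 points (4.56 to 9.96), and motif 1 in 9 (1.95%) and 1 (0.112%). CACTGAGA went the other way, with 3 promoter windows (0.651%) and 45 distant windows (5.06%), a difference of −4.41 points (−6.10 to −2.64). TACACTGA was in 6 (1.3%) and 35 (3.93%), a difference of −2.63 points (−4.28 to −0.769). For CACTGTGC, with 9 and 27 windows, the interval of the difference (−2.71 to 0.875 points) spans 0. TTTAAAAA was in 8.89% and 8.65%, with an interval of −2.80 to 3.63 points.

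Within promoter regions alone, the summit differed from the flank by the exact McNemar test for the DRE (30 against 2 windows, adjusted p = 2.46e-06), motif 7 (39 against 6, adjusted p = 2.71e-06), TTTAAAAA (41 against 17, adjusted p = 0.00499) and motif 1 (9 against 0, adjusted p = 0.00977). Within distant regions alone it differed for CACTGAGA (45 against 6, adjusted exact p = 7.60e-08), TACACTGA (35 against 6, adjusted exact p = 1.21e-05), TTTAAAAA (77 against 44, adjusted exact p = 0.00976) and CACTGTGC (27 against 10, adjusted exact p = 0.0191). This split was added after the data were seen. As a guide to how common these sequences are at starts in general, windows of the same size at the first annotated start of each of 13968 protein-coding genes held a DRE in 7.29%, motif 7 in 7.2%, motif 1 in 3.63% and CACTGAGA in 0.68%. The DRE share of the unlisted promoter regions was thus not above that of coding starts as a whole. A match is a stretch of letters and does not show that a factor is bound.

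**Figure D5:**
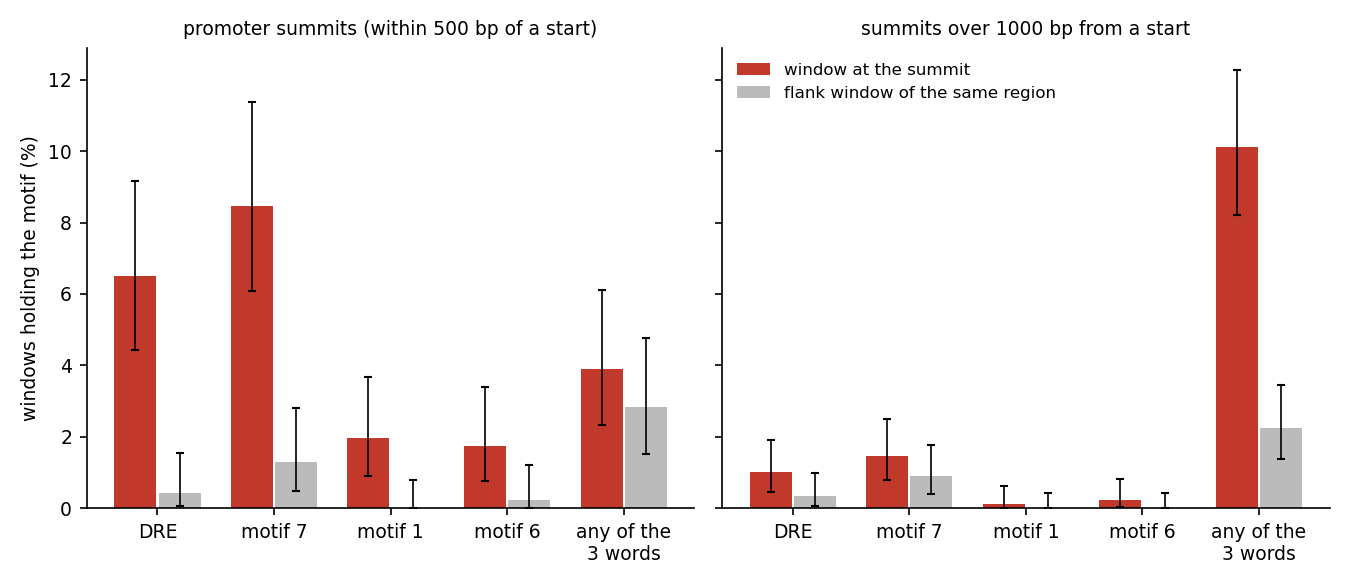
Share of windows (%) that hold each motif, at the summit and in the flank of the same region, for the 461 promoter regions (left) and the 890 regions more than 1000 bp from a start (right) among the 1500; bars are exact binomial 95% intervals, and the 3 words are those of the text that share the letters CACTG. The DRE and motif 7 stand out at promoter summits (6.51% and 8.46%), and the 3 words at distant summits (10.1% against 2.25% in the flank).

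Gene by gene, the promoter regions touched 562 genes, of which 510 were protein coding, 48 were noncoding RNA genes, 3 were tRNA genes and 1 was a pseudogene. The 510 are 3.65% of 13968 coding genes. For 435 of them no IDR peak summit lay within 500 bp of a start, while 75 had an IDR promoter peak as well. Over all 13968 coding genes, 3004 (21.5%) had an IDR promoter peak. The rule set aside regions that overlap an IDR peak, which makes both at 1 start less likely. Nothing about the regions is read from these counts. Starts of more than 1 gene lay within 500 bp of 113 promoter regions. Gene lists, 30 in number and chosen with earlier results of these data known, were counted, and their counts are small and stand as descriptions. Because regions overlapping an IDR peak were set aside, lists with many listed promoter peaks had fewer places left for an unlisted region. The 3.65% stands beside the lists of coding genes only. It is no yardstick for the tRNA, small nucleolar RNA and small nuclear RNA lists, which are noncoding. Of the 562 genes with an unlisted promoter region, 52 were noncoding. The annotation holds 18277 genes, of which 13968 are coding.

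Housekeeping lists held 1 to 3 genes each with an unlisted promoter region. The exact binomial intervals of their shares spanned the 3.65% of all coding genes in all but the glycolysis list. Shares were 2.15% (0.262 to 7.55) for cytoplasmic and 2.74% (0.334 to 9.55) for mitochondrial ribosomal protein genes. They were 2.08% (0.0527 to 11.1) for proteasome, 6.82% (1.43 to 18.7) for translation initiation factor and 27.3% (6.02 to 61.0) for glycolysis genes. Whether the lists differ was not tested. Of 93 cytoplasmic ribosomal protein genes, 2 had an unlisted promoter region (RpS3 and RpS24), where 72 (77.4%) had a listed peak, against 21.5% of all coding genes. Most of the 93 thus had a listed peak, whose overlapping regions were set aside, and the 2 are not read as scarcity. Of 73 mitochondrial ribosomal protein genes, 2 had one (mRpS11 and mRpS17, whose region was nearest to the start of Nop60B), and of 48 proteasome genes 1 had one (Rpn12). Of 44 translation initiation factor genes there were 3: eIF1A, eIF4A, which also has a listed peak of 232.579, and eIF2gamma. Of 11 glycolysis genes there were 3, none with a listed promoter peak. They were Pgi, phosphoglucose isomerase, with a signal of 186.882, Pglym78, a phosphoglycerate mutase, with 185.953, and Ald1, an aldolase, with 174.947. All 3 summits were within 50 bp of a start, and replicate 1 had no region at any of them. Of these glycolysis regions, Pglym78 ranked 4317 and 7472 in replicates 2 and 3, Ald1 6557 and 6533, and Pgi 15010 and 5458.

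Signalling and developmental lists held 0 to 4 such genes each. In the receptor tyrosine kinase list of 22 genes there were 4, and those named are pnt, the ETS factor at the end of the pathway, at 189.414 with ranks of 8959, 3476 and 9178, InR, the insulin receptor, whose region was nearest to lncRNA:Irar and which also has a listed peak of 515.646, and pyr, a fibroblast growth factor ligand whose region was missing from replicate 3. In the Notch list of 18 there were 3: N, the receptor, at 180.807 with ranks of 5475, 5669 and 12244, neur, a ubiquitin ligase for its ligands, which also has a listed peak of 683.098, and E(spl)mbeta-HLH, a target gene. Of 12 ecdysone response genes 4 had a region, including Eip75B, a nuclear receptor gene, which also has a listed peak of 1133.97, Hr39, which has none, and usp, the partner of the ecdysone receptor, whose region was nearest to Actn and which also has a listed peak of 457.528. Of 16 dorsoventral genes 2 had one: vnd at 193.166, with ranks of 6690, 8098 and 7200, and ush, a partner of GATA factors, at 174.051, with ranks of 3260 and 12704 in replicates 2 and 3 and no region in replicate 1. A single gene was found in the Wnt list of 20 (lgs), the TGF-beta list of 15 (wit, a receptor), the trithorax list of 12 (osa), the muscle list of 16 (Tm1), the heat shock list of 21 (Hsc70-3), the clock list of 10 (Pdp1) and the DNA replication list of 20 (geminin). Of these, Tm1, Hsc70-3 and Pdp1 also have listed promoter peaks, at 624.485, 268.106 and 218.556.

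Other lists had 0 genes with an unlisted promoter region: the Hox genes (8), maternal and gap (13), pair-rule (9), segment polarity (10), neural fate (16), germline (13), insulator and interband (16), Polycomb (17) and actin genes (6), cuticle proteins (119), small nucleolar RNAs (269) and small nuclear RNAs (32). Of the 16 insulator and interband genes, 10 (62.5%) had a listed promoter peak, whose overlapping regions were set aside, which limits that count of 0. For lists as short as the actin or Hox genes a count of 0 still allows a high share. The exact 95% upper bound was 36.9% for the Hox genes, 3.05% for the cuticle list and 1.36% for the small nucleolar RNAs. Of 179 chemoreceptor genes 1 had a region, Gr63a, and that region was nearest to the start of its neighbour Lamtor4. Of 290 tRNA genes 3 had one (1.03%, exact 95% interval 0.214 to 2.99). The tRNA:Lys-TTT-1-1 region ranked 6388, 9696 and 7605 in replicates 1, 2 and 3.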

How the data were processed

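ChIP-seq region lists of 3 biological replicates, of their pool and of the IDR peaks were used as deposited in dm6. Per the text files deposited with them, regions were called per replicate and on the pool against 1 control alignment, with background kept as IDR input. Aligner, peak caller and IDR cut-off were not given in the sources used here. Both the deposited signal value and the deposited −log10 q are the authors' own. Read counts are not used here, so depth is unknown. The signal ranked regions within 1 list. Summits were placed on the Ensembl 115 annotation of Release 6 (18277 genes without transposable elements). Shares carry exact binomial 95% intervals and differences of shares Newcombe 95% intervals, which cover counting error only. Motifs were tested with exact McNemar tests (scipy 1.17.1, Python 3.11.15), tested on simulated data first. Regions named were the 10 of highest signal, the 10 with the best rank in their worst replicate, up to 3 promoter regions per gene list, and the 3 on each side of each boundary. Lists, motifs and the regions themselves were chosen with earlier results of these data known. Of the gene lists' symbols, 9 matched no annotated gene. Alternatives changed windows, the number of regions, the overlap rule and the replicates required. Leaving out a replicate kept the regions that top-ranked regions of both others overlap, since IDR was not rerun. Labels do not say whether replicates share parents.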

Additional observations from a re-analysis of the deposited data

How the results depend on the processing

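The promoter share of 30.7% was 22.5% with a window of 250 bp and 40.7% with 1000 bp. Requiring top-ranked regions in 2 named replicates moved it between 21.1% (replicates 1 and 3) and 37.2% (replicates 2 and 3). Keeping 750 or 3000 regions, excluding only summits inside an IDR interval, a −log10 q of 2, counting overlapping regions once, or leaving out soft-masked regions (an alternative added after seeing the data) kept it within its interval. The share met in all 3 replicates, 4.33%, was 77.1% with any replicate region, 0.2% with ranks within the number of IDR peaks, 2.2% with summits within 100 bp, 7.47% for the first 750 and 2.7% for the first 3000. Required in only 2 replicates, it ranged between 14.2% and 25.3%. The share within 1000 bp of an IDR peak, 11.4%, was 19.1% between nearest edges and 15.5% when only summits inside an interval excluded a region, and ranged between 12.7% and 14.2% without 1 replicate each. The 7 motifs or words past the threshold became 8 with a window of 200 bp, with the first 3000 regions or with the left flank, 5 with the first 750, 4 with a window of 50 bp, 4 in promoter regions alone, 4 in distant regions alone, and 1 to 3 without 1 replicate each, where 213 to 379 regions were left to test. Over 100 values of single motifs under alternatives, 11 changed direction. These were CACTGAGA in promoter regions (0.651%), the GAGA run with a 200 bp window (4.27%), in the first 750 (2.13%), with the left flank (2%), without replicate 1 (3.13%) and in promoter regions (2.82%), and the Zelda site with a 50 bp window (0.6%), with the left flank (0.933%), without replicates 2 and 3 (1.06% and 0.939%) and in distant regions (0.899%). Over the omissions of each replicate in turn, whether or not the direction changed, the GAGA share ranged from 0.939% to 3.13% and the Zelda share from 0.694% to 1.06%. The lists of dm3 left 22836 regions outside IDR peaks, against 22351 in dm6. With 1 group, no paired analysis was possible because no groups were compared.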
